A study of Mus musculus with 64 samples.

Results

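The genes described here are 34 genes of cholesterol and fatty acid synthesis among 36332 gene IDs measured by RNA-seq in 64 mouse libraries. They were matched to the table by NCBI gene ID and fall into a sterol branch of 20 genes and a fatty acid branch of 14. The study compared mice lacking Myc, which encodes a transcription factor of cell growth, with wild-type mice, in omental adipose tissue, liver and skeletal muscle, at 5 and 20 months of age. These make 12 groups of 6 libraries (young) or 5 libraries (old), except 4 libraries for young knockout muscle. Knockout mice (KO) came from crossing B6.129 lines, one with a tamoxifen-inducible Cre (Cre-ERT2) placed in Gt(ROSA)26Sor and the other with a floxed Myc allele. Wild-type mice (WT) were C57/B6, so strain background and Myc genotype cannot be told apart. Mice of both genotypes are labelled as given tamoxifen, 75 mg/kg once a day in 5 injections, beginning at weaning from a weight of 15 g. The codes of the older libraries hold the number 18 while their labels say 20 months. Libraries are named below by their codes, which give genotype (W or K), age, tissue (F, L or S) and a number. Nothing states that each number is a separate animal, so p-values measure the spread between these samples, which may be technical.

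Cells build cholesterol from acetyl-CoA by way of mevalonate, squalene and lanosterol, and build fatty acids from acetyl-CoA by way of malonyl-CoA, followed by elongation and desaturation. SREBP-2 and SREBP-1, the products of Srebf2 and Srebf1, are the main activators of the sterol and the fatty acid genes, and Insig proteins hold their precursors in the endoplasmic reticulum when sterols are plentiful. In rodents fatty acids are made mainly in liver and adipose tissue, where the pathway follows feeding, insulin and the daily clock. In order of the pathway, the sterol members were Hmgcs1, which makes HMG-CoA, the mevalonate genes Mvk, Pmvk, Mvd and Idi1, the prenyl and squalene genes Fdps, Fdft1 and Sqle, the lanosterol cyclase gene Lss, and the later genes Cyp51, Tm7sf2, Msmo1, Nsdhl, Hsd17b7, Ebp, Sc5d and Dhcr7. The sterol carrier gene Stard4, Insig1 and Srebf2 completed that branch. The fatty acid members were Srebf1, Acly for cytosolic acetyl-CoA, the carboxylase genes Acaca and Acacb, the synthase gene Fasn, the elongase genes Elovl5 and Elovl6, the desaturase genes Scd1, Scd2, Fads1 and Fads2, the NADPH source Me1, the lipogenic regulator Thrsp and the lipid droplet gene Pnpla3.

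Promoters of 4 members are shown because Hmgcs1, Idi1 and Insig1 carried changes described below and Fasn is the central enzyme gene of the other branch. RefSeq windows on GRCm38.p6, from 250 bases before to 50 bases after the start, were found for 27 of the 34 members. The 250 bases before the start are printed 5′ to 3′ on the strand of the gene, at chr13:119690101-119690350 (+) for Hmgcs1, chr13:8885356-8885605 (+) for Idi1, chr5:28071162-28071411 (+) for Insig1 and chr11:120824548-120824797 (-) for Fasn. Capitals mark matches on either strand to TCACNCCAC (a sterol regulatory element word), CCAAT (the core of NF-Y sites) or CACGTG (an E-box).
Hmgcs1: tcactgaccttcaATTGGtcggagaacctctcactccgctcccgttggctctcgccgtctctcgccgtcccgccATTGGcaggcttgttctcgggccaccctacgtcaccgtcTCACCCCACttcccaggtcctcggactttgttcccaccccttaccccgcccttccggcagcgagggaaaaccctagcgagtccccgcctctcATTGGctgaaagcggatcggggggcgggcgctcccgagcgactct
Idi1: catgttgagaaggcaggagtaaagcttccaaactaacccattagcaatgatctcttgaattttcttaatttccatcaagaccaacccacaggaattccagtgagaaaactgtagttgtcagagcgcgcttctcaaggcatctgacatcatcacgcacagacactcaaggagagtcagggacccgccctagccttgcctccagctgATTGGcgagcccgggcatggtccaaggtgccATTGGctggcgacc
Insig1: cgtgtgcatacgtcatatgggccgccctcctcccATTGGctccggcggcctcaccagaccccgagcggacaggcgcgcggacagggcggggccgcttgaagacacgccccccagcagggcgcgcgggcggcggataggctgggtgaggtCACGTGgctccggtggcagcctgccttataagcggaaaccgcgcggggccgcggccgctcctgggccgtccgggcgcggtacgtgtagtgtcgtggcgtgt
Fasn: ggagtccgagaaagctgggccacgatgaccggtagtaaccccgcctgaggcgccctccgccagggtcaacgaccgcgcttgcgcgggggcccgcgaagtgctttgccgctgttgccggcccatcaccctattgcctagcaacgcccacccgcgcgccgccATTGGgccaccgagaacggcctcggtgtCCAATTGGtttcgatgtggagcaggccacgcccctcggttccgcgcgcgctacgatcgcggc
TCACNCCAC was found in 1 of the 27 matched members, Hmgcs1, 137 bases before the start, and in 1.44% of the 27025 genes in the table. CCAAT was found in all 16 matched sterol members and in 8 of the 11 matched fatty acid members, against 41.1% of all genes. CACGTG was found in 4 sterol members (Hsd17b7, Insig1, Dhcr7 and Sc5d) and 1 fatty acid member (Elovl5), against 8.09% of all genes. In the Fasn promoter the CCAAT matches 62 and 59 bases before the start overlap each other. A match describes letters in these windows only.

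Recovered sequencing depth was 15.4 M to 28.5 M reads per library. All values below are the deposited ones, which are read counts scaled by a factor for each library. The tissues carried their markers: Adipoq was at least 609.8 in adipose tissue and at most 0.205 in liver, and the 5 hepatocyte markers summed to at least 102305 in liver. Myc did not overlap between genotypes in young liver (5.46 to 33.7 in WT, 1.16 to 4.04 in KO), old liver (5.36 to 7.61, 1.12 to 2.92) and young adipose tissue (11.2 to 22.8, 2.87 to 10.5). It overlapped in old adipose tissue (8.10 to 16.3, 5.14 to 9.72), young muscle (6.15 to 81.3, 5.00 to 17.1) and old muscle (4.97 to 13.1, 1.75 to 10.2). Each young group held 2 libraries with Xist transcripts and each old group 0, so age and sex are partly confounded. The 7 epididymis and testis markers summed to 6134, 975 and 3999.5 in young KO adipose libraries K5F4284, K5F5218 and K5F5248 and to 920.1 in young WT adipose library W5F5299, against at most 2.79 in the other adipose libraries. In bulk tissue, fewer cells of a type and less RNA per cell cannot be told apart.

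A gene was tested where its value exceeded 1 in enough libraries of the tissue to fill the smallest group, and a member was called where its adjusted p in limma was under 0.05. All 34 members were tested in adipose tissue and muscle and 33 in liver, where Pnpla3 was at most 1.13. Fold changes are on the log2(value + 1) scale, with standard errors, and understate changes of low genes. With age 11 members were called in at least 1 tissue and genotype, in 15 calls of which 9 were higher. The share of all genes called in these comparisons ran from 2.99% (KO liver) to 18.6% (WT muscle). Hmgcs1 was called higher in WT in all 3 tissues. Its call held under all 20 alternatives run in liver, but was lost under 4 of 21 in adipose tissue and 17 of 21 in muscle. No member was called between KO and WT in any tissue at either age.

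**Figure D1:**
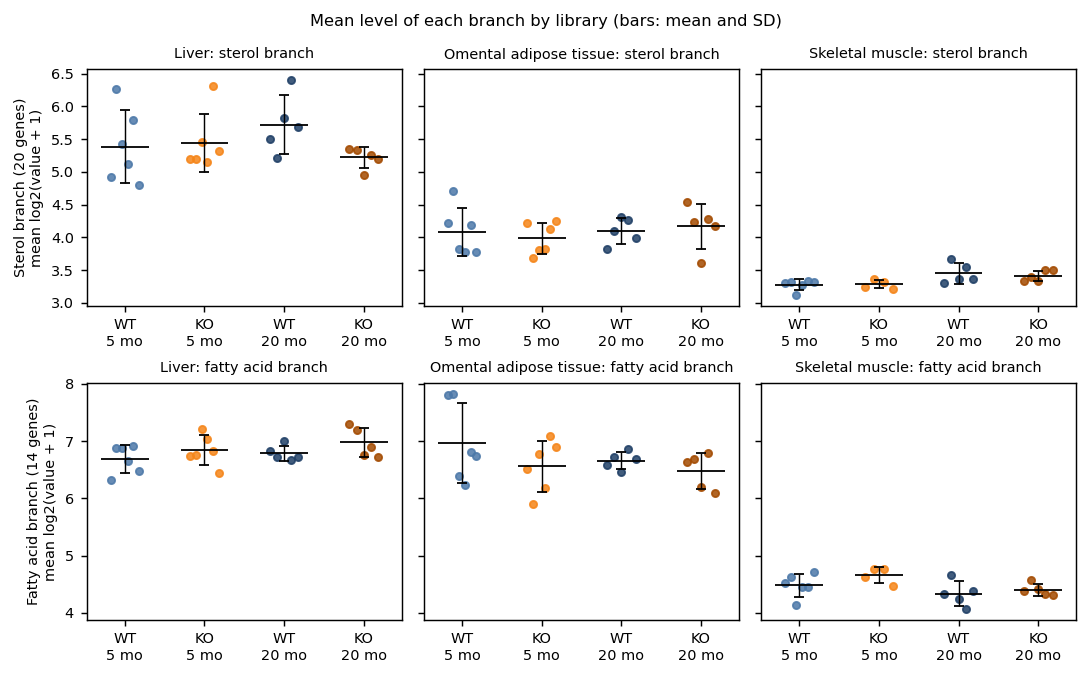
Mean log2(value + 1) of the sterol genes and of the fatty acid genes in each library of the 12 groups, with the group mean and SD. Sterol means in liver span 4.80 to 6.40 with overlap of all 4 groups, and young WT adipose libraries W5F5005 and W5F5006 stand at 7.81 and 7.82 for the fatty acid branch.

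In liver the mean log2(value + 1) of the 20 sterol genes ranged from 4.80 to 6.26 in young WT, from 5.14 to 6.31 in young KO, from 5.21 to 6.40 in old WT and from 4.96 to 5.36 in old KO. All 4 groups overlapped, and old KO was the narrowest. Of the 20 genes, 18 were above their liver median in young WT library W5L5005, 18 in young KO library K5L5218 and 17 in old WT library W18L04, against 1 in young WT library W5L5299, and also 1 in old KO library K18L08. The SD of a member within groups, as a median over the branch, was 0.57 on the log2 scale for the sterol branch of liver, 0.50 for that of adipose tissue and 0.27 for that of muscle. Fatty acid genes spread by 0.45 in liver, 0.71 in adipose tissue and 0.31 in muscle.

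Clock and fasting genes are given beside these levels for the 3 livers with the highest sterol mean (W18L04, K5L5218 and W5L5005) and for W5L5277, the fifth. Dbp, a clock output gene, was 121 in young KO library K5L5218, 255 in old WT library W18L04 and 81.8 in young WT library W5L5277, against at most 19.6 in the other 19. Arntl, which encodes the clock activator BMAL1, was 7.11, 4.06 and 12.8 in the same 3 libraries and at least 25.4 in the others. Young WT library W5L5005 was within the range of the others for both, with Dbp at 3.0 and Arntl at 33.6. Pdk4, which is high in fasting, was 37.5, 28.6, 13.5 and 18 in libraries W5L5005, W5L5277, K5L5218 and W18L04 and at least 49.1 in the other 18. W18L03, the fourth by sterol mean (5.82, against 5.80 in W5L5277), lay within the range of the others for all 3 genes, with Dbp at 3.80, Arntl at 30.9 and Pdk4 at 82.3. These 3 genes were chosen after their values were seen. The lists held 14 clock and 10 feeding and fasting genes, and their other members are not given for these libraries. The part of time of day or feeding in the sterol levels was not tested.

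Srebf2, the activator of the branch, was not called in liver. It ran from 48.7 to 88.7 with a median of 63.9 in young WT and from 58.3 to 87.6 with a median of 63.7 in young KO. It was 72.6, 64.2, 76.0, 82.6 and 78.3 in old WT and 60.6, 69.6, 59.4, 70.8 and 58.5 in old KO. All groups overlapped, with fold changes of 0.17 with age in WT, -0.09 with age in KO, 0.03 between young genotypes and -0.23 between old genotypes.

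Hmgcs1 gave the largest called change in liver. It ran from 71.7 to 162 with a median of 108 in young WT and from 78.1 to 229 with a median of 114 in young KO. It was 269, 242, 286, 267 and 245 in old WT and 214, 202, 115, 140.3 and 134 in old KO. The 5 old WT livers were above all young WT and all old KO livers, while old and young KO overlapped. With age in WT Hmgcs1 was higher by 1.26 ± 0.25 (SE, adjusted p = 0.00492 in limma). It was the single call among 33 members, against 7.19% of 12924 genes, and it was called under each of the 20 alternatives run (1.14 to 1.47). Old KO differed from old WT by -0.74 ± 0.27 (adjusted p = 0.750), and old from young KO by 0.33 ± 0.25 (adjusted p = 0.498). The difference between the 2 age effects was -0.93 ± 0.36 (adjusted p = 0.991) and did not pass the test.

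**Figure D2:**
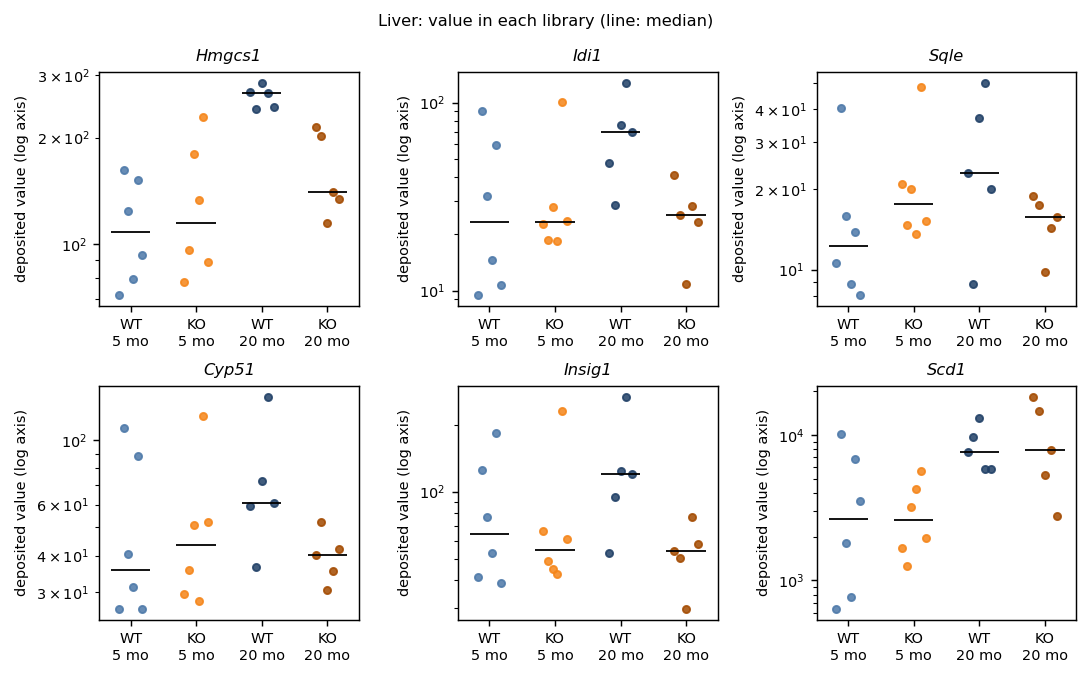
Values of 6 members in each liver library on log axes, by group, with the group median as a line. Hmgcs1 lies between 242 and 286 in old WT, above all young WT and old KO libraries, and young KO library K5L5218 is the highest of its group for the 6 genes.

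The other sterol genes were not called in WT liver with age. The branch had a median change of 0.27, against -0.01 over all genes, with 14 of 20 positive. Scaling by the total reads of each library instead moved the median of all genes to 0.17 and that of the branch to 0.44. Sqle, which epoxidizes squalene, ran from 8.03 to 40.5 with a median of 12.2 in young WT and from 13.6 to 48.4 with a median of 17.6 in young KO. It was 23, 8.83, 36.8, 50.2 and 20.0 in old WT and 18.9, 17.5, 9.82, 14.4 and 15.8 in old KO. These groups overlapped, and its change was 0.75 ± 0.39, adjusted p = 0.237 in WT and -0.39 ± 0.39, adjusted p = 0.618 in KO. Idi1, an isomerase of the isoprenoid units, had a change of 1.26 ± 0.53, adjusted p = 0.140 in WT, with 47.7, 28.6, 76.0, 128 and 70.2 in old WT and from 9.46 to 90.8 in young WT. Leaving out young WT library W5L5277 raised the number of called members from 1 to 5, leaving out W5L5299 to 4 and leaving out W5L5005 to 2. The shares of all genes called with these omissions are not given here, so the rise is not particular to the members.

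Between old KO and old WT liver, 18 of the 20 sterol genes had negative fold changes, with a median of -0.42 against 0.01 over all genes. None of the 33 members was called, against 0.0232% of all genes, and 7 of 20 sterol genes had an unadjusted p under 0.05, against 5.8% of all genes. The lowest fold changes were those of Msmo1 (-1.36 ± 0.49, adjusted p = 0.750), Idi1 (-1.35 ± 0.56, adjusted p = 0.806) and Insig1 (-1.14 ± 0.46, adjusted p = 0.806). Msmo1, a sterol demethylase gene, was 40.1, 25.6, 72.1, 153 and 59.8 in old WT and 27.9, 18.5, 17.0, 26.6 and 22.7 in old KO. Its highest old WT library was library W18L04, and 2 KO libraries were above the lowest WT library. Stard4 was 47.9, 45.4, 54.3, 125 and 70.6 in old WT and 35.9, 35.8, 20.0, 33.3 and 42.3 in old KO, and with Hmgcs1 it was the other member whose groups did not overlap (-0.95 ± 0.44, adjusted p = 0.840). These were 2 of 33 members, against 2.46% of all genes without overlap. Without old WT library W18L04, whose Dbp and Pdk4 are given above, the branch median was -0.25 with 16 of 20 negative. In young liver 0 of 33 members were called, against 0.0696% of all genes, and the sterol median was 0.04. It was -0.19 without KO library K5L5218 and 0.22 without WT library W5L5005.

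With age in KO liver the single call was Hsd17b7, a reductase late in the sterol pathway, against 2.99% of all genes. It ran from 77.7 to 135 with a median of 125 in young KO and was 55.0, 88.1, 83.9, 49.9 and 55.6 in old KO. The old libraries were lower, with overlap through young library K5L5218. The change was -0.81 ± 0.20, adjusted p = 0.0317 in limma, and in WT it was 0.06 ± 0.20, adjusted p = 0.881. The KO call was lost without any of old libraries K18L06, K18L09 and K18L10 or of young libraries K5L4284, K5L4285, K5L5116 and K5L5248, at -0.92 to -0.72 over all omissions. It was also lost with scaling by total reads (-0.61), in edgeR (-0.76) and with no filter (adjusted p = 0.0545). Dhcr7 and Lss were also lower without overlap in old KO, at -0.56 ± 0.20, adjusted p = 0.129 and -0.41 ± 0.18, adjusted p = 0.207, and were not called (2 of 33 members without overlap, against 3.84% of all genes). The sterol branch had a median of -0.26 with 16 of 20 negative, and -0.04 with 11 negative without young library K5L5218.

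No fatty acid gene was called in liver for age or genotype. Srebf1 ran from 29.6 to 136 with a median of 49.4 in young WT and from 30.8 to 155 with a median of 58.5 in young KO. It was 75.1, 82.3, 84.4, 95.8 and 91.7 in old WT and 98.0, 65.8, 48.1, 57.9 and 67.5 in old KO. The old WT values lay close together within the young range, and the change with age was 0.62 ± 0.36, adjusted p = 0.290 in WT. Fasn ran from 100.2 to 278 with a median of 186 in young WT and from 67.0 to 371 with a median of 278 in young KO. It was 111, 126, 169, 160.4 and 153 in old WT and 221, 189.7, 167, 251 and 159 in old KO. Old KO was mostly above old WT with overlap (0.45 ± 0.34, adjusted p = 0.891).

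Scd1, the desaturase that makes monounsaturated fatty acids, had larger changes with age in liver than the other fatty acid genes. It ran from 636 to 10223 with a median of 2659 in young WT and from 1258 to 5624 with a median of 2585 in young KO. It was 7626, 9634, 13132, 5802 and 5791 in old WT and 18363, 14651, 5309.8, 7858 and 2759.8 in old KO. Old libraries were mostly higher, with overlap through young WT libraries W5L5005 and W5L5277 and old KO libraries K18L08 and K18L10. The changes were 1.7 ± 0.62, adjusted p = 0.0936 in WT and 1.60 ± 0.62, adjusted p = 0.164 in KO in limma. Without young WT library W5L5005 or W5L5277 the WT change was called, at 1.31 to 2.11 over all omissions. The median of the 13 fatty acid genes tested was -0.03 in WT and 0.08 in KO, and with scaling by total reads 0.15 and 0.28. Between genotypes it was 0.10 at 5 months and 0.12 at 20 months, where members ranged from -0.38 to 0.90.

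Of 11 regulators of the pathway, 2 were called with age in each genotype of liver. For this and the next lists the share of all genes called was 7.19% in WT and 2.99% in KO. Mlxipl, which encodes the carbohydrate-responsive factor ChREBP, was higher in WT (0.82 ± 0.17, adjusted p = 0.00613) and in KO (0.88 ± 0.17, adjusted p = 0.00858). Mlx, its partner, was lower in WT (-0.33 ± 0.09, adjusted p = 0.0327) and Scap, the escort of SREBPs, was lower in KO (-0.38 ± 0.10, adjusted p = 0.0427). Of 8 other sterol genes Por, an electron donor to Cyp51 and Sqle, was lower in WT (-1.73 ± 0.35, adjusted p = 0.00493) and in KO (-1.33 ± 0.35, adjusted p = 0.0394). Of 23 other fatty acid genes tested Hsd17b12, which acts in elongation, was higher in WT (0.82 ± 0.21, adjusted p = 0.0216). Of 14 clock genes Per1 was lower (-1.73 ± 0.52, adjusted p = 0.0459) and Hlf higher (0.74 ± 0.15, adjusted p = 0.00593) in WT. In KO 0 genes of the last 2 lists were called, and of 10 feeding and fasting genes 0 were called in either genotype.

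**Figure D3:**
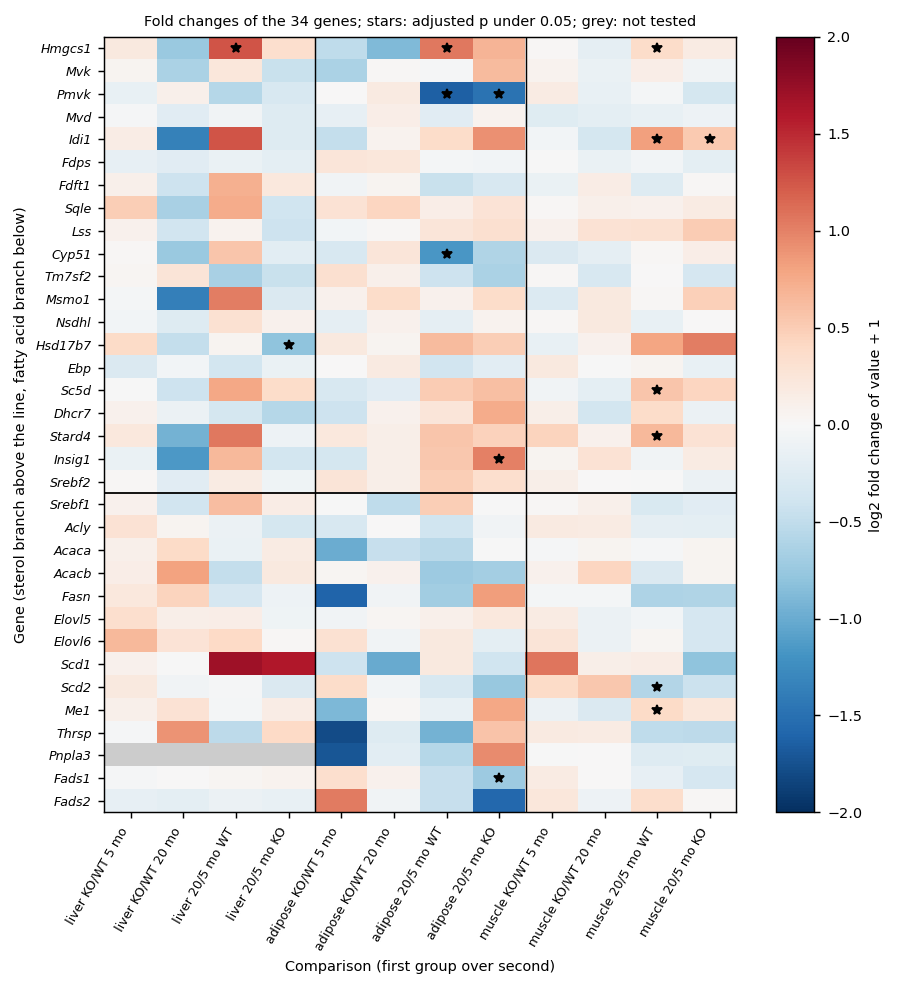
Log2 fold changes of value + 1 for the 34 members (rows) in each comparison of genotype and age (columns), with stars at an adjusted p under 0.05 and grey where a gene was not tested. The 15 stars stand in comparisons of age, and Hmgcs1 has 3 of them.

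In omental adipose tissue the fatty acid genes spread most in young WT. Fasn was 2974, 2869, 379, 239.5, 453 and 191 in young WT and 150.3, 35.6, 623, 476, 333 and 160.4 in young KO. It was 302, 598, 306, 426 and 395 in old WT and 648, 526, 176, 766 and 162 in old KO. Young WT libraries W5F5005 and W5F5006 were above every other adipose library, and without them all groups overlapped. Thrsp was 430.5 and 462 in this pair, 372 in library W5F5277 and 73.5 to 95.7 in the other 3. Pnpla3 was 282, 314 and 109 in the same 3 libraries and 6.68 to 13.8 in the others. Acly was 323 and 353 in the pair and at most 114 in the other 4. Beside these, Pdk4 was 96.6, 69.4 and 106 in libraries W5F5005, W5F5006 and W5F5277, 101 and 128 in young KO libraries K5F5218 and K5F5248, and at least 301 in the other adipose libraries. The part of feeding in these levels was not tested.

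**Figure D4:**
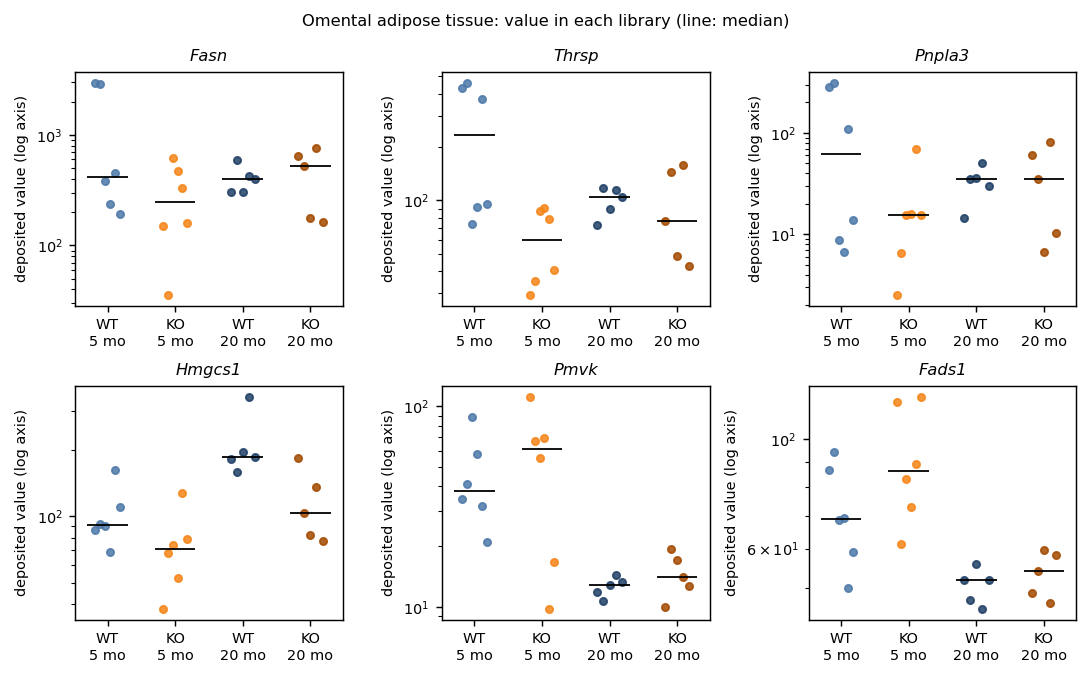
Values of 6 members in each adipose library on log axes, by group, with the group median as a line. Fasn and Thrsp are highest in young WT libraries W5F5005 and W5F5006, old WT lies above young WT for Hmgcs1 with overlap of 1 young library and below it for Pmvk, and old KO lies below young KO for Fads1.

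Between young KO and WT adipose tissue 0 of 34 members were called, against 0.105% of 14286 genes. The lowest fold changes were those of Thrsp (-1.79 ± 0.47, adjusted p = 0.169), Pnpla3 (-1.72 ± 0.90, adjusted p = 0.453) and Fasn (-1.60 ± 0.71, adjusted p = 0.384). Thrsp was 29.3, 35.0, 87.2, 90.2, 79.0 and 40.8 in young KO, so that 3 KO libraries lay below all WT libraries and the others overlapped the lower WT values. Me1 (-0.90 ± 0.25, adjusted p = 0.199) and Acaca (-0.99 ± 0.32, adjusted p = 0.259) were also lower without a call. The median was -0.19 over the fatty acid genes and -0.06 over the sterol genes, against -0.04 over all genes. DESeq2 called 3 members (Thrsp and Me1 lower, Fads2 higher), and limma on libraries with Y transcripts called 4, without the shares of all genes in these fits given here. Fads2, a desaturase of polyunsaturated fatty acids, was 79.3, 46.2, 86.8 and 22.9 in the 4 libraries with epididymis markers and at most 10.5 in the others. Without those 4, 13 of 14 fatty acid and 17 of 20 sterol genes were negative, with medians of -0.65 and -0.47, and 0 members were called. That fit left K5F4285 and the Xist libraries K5F5116 and K5F5118 in young KO. It dropped K5F5218 and K5F5248, whose low Pdk4 is given above, and W5F5299 from WT. W5F5005 and W5F5006, the highest for Fasn, stayed in WT, as did the Xist libraries W5F5041 and W5F5042. The genotypes thus differed in more than these markers.

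Between old KO and WT adipose tissue 0 of 34 members were called, against 0% of all genes. At an unadjusted p under 0.05, 1 member passed, Hmgcs1 (-0.89 ± 0.30, adjusted p = 1.0), with 4 of 5 KO libraries below all WT libraries, against 2.25% of all genes at that p. The sterol median was 0.10 with 18 of 20 positive, and 0.01 with 10 positive without KO library K18F26. Scd1 ran from 8414 to 30222 with a median of 16470.2 in young WT and from 7129 to 22484 with a median of 11696 in young KO. It was 24955, 16989, 9689.6, 17628 and 23990.5 in old WT and 5218.4, 16370.1, 17464, 4395 and 7930.1 in old KO. The old KO libraries were mostly lower with overlap (-1.01 ± 0.51, adjusted p = 1.0).

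With age in WT adipose tissue 3 of 34 members were called, all of the sterol branch, against 10.8% of all genes. Hmgcs1 was 86.4, 91.9, 90.7, 69.0, 163 and 110.3 in young WT and 181, 159, 195, 349 and 185 in old WT. Young library W5F5277 alone reached above the lowest old library. The change was 1.06 ± 0.28, adjusted p = 0.0228 in limma. The call was lost without old library W18F24 or young library W5F5042 (0.87 to 1.2) and with a sex term (0.95, adjusted p = 0.0596) or in libraries with Y transcripts (0.90). In KO it ran from 38.0 to 128 with a median of 71.1 at 5 months and was 183, 103, 82.6, 136 and 77.1 at 20 months (0.68 ± 0.28, adjusted p = 0.102).

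Pmvk, the phosphomevalonate kinase gene, was lower with age in both genotypes. It was 34.3, 41.1, 88.8, 57.9, 31.7 and 21.2 in young WT and 11.8, 10.7, 12.8, 14.5 and 13.4 in old WT. The values of 88.8 and 57.9 came from libraries W5F5041 and W5F5042, which held Xist transcripts. Every old WT library was below every young one, with a change of -1.64 ± 0.45, adjusted p = 0.0263 in limma. In KO it was 112, 67.3, 55.0, 69.2, 9.75 and 16.7 at 5 months and 10.01, 19.5, 17.1, 14.1 and 12.7 at 20 months. There the Xist libraries K5F5116 and K5F5118 were at 55.0 and 69.2, below library K5F4284 at 112. The KO groups overlapped through young libraries K5F5218 and K5F5248, with a change of -1.47 ± 0.45, adjusted p = 0.0363. The WT call was lost without any of old libraries W18F21, W18F22, W18F23 and W18F25 or young libraries W5F5041 and W5F5042 (-1.83 to -1.42). The KO call was lost without any of old libraries K18F26, K18F29 and K18F30 or young libraries K5F4284, K5F4285, K5F5116 and K5F5118 (-1.87 to -1.19) and in a fit on the compared groups (adjusted p = 0.105). In libraries with Y transcripts the changes were -1.25 in WT and -1.19 in KO, neither called, and with no filter both calls were lost (adjusted p = 0.0545 in WT and 0.0692 in KO, in limma). With a sex term both calls were lost, at -1.30 in WT and -1.13 in KO.

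Cyp51, the lanosterol demethylase gene, was 19.7, 25.5, 55.1, 68.0, 16.8 and 16.7 in young WT and 9.11, 12.1, 17.7, 12.1 and 11.0 in old WT. The values of 55.1 and 68.0 came from libraries W5F5041 and W5F5042, which held Xist transcripts. In young KO the Xist libraries K5F5116 and K5F5118 were at 19.4 and 16.7, and the others at 18.2 to 39.0. Old libraries were lower, with overlap through old library W18F23. The change was -1.17 ± 0.33, adjusted p = 0.0288 in limma. The call was lost without any of old libraries W18F21, W18F22, W18F24 and W18F25 or young libraries W5F5041 and W5F5042 (-1.32 to -0.93) and with a sex term (-0.98), in libraries with Y transcripts (-0.64) and with no filter on low values (adjusted p = 0.0568). Markers of cell types differed with age beside these genes. The 6 adipocyte markers, none at 0, summed to 12194 to 22004 in young WT and 5342 to 9402 in old WT, and to 5533 to 20959 and 5419.6 to 10002 in young and old KO. The 5 hepatocyte markers, none at 0, summed to 475 to 4881 and 153 to 548 in young and old WT and to 1243 to 3837 and 108 to 1361 in KO, mostly through Cyp2e1 (439.6 to 4859 in young WT), while Alb was 12.4 to 52.7 there. Among all genes, 10.8% were called with age in WT and 14.2% in KO. Single markers did not all follow these sums. In WT 2 of 6 adipocyte markers had positive changes with age and 2 were called lower. In KO 4 of 6 were positive, and 1 (Lep) was called higher. Of 5 hepatocyte markers 2 were positive in WT, where 1 was called lower, and 4 were positive in KO. The 4 B cell markers, none at 0, summed to 3.55 to 19.7 and 23.8 to 167 in young and old WT and to 4.05 to 6.45 and 10.1 to 35.7 in KO, with 4 and 3 called higher. The 4 T cell markers, none at 0, summed to 3.62 to 9.60 and 10.6 to 45 in WT and to 9.05 to 16.6 and 14.5 to 24.2 in KO, with 4 and 0 called higher. Of 5 macrophage markers, none at 0, 0 were called higher in WT and 1 in KO, with sums of 847 to 1414 and 905 to 2029 in WT and 672 to 2384 and 1279 to 3092 in KO. Their part in the results was not tested.

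With age in KO adipose tissue 3 of 34 members were called, against 14.2% of all genes: Pmvk, Insig1 and Fads1. Insig1 was 35.6, 39.0, 26.4, 32.0, 41.2 and 37.5 in young KO and 136, 57.1, 34.7, 110.3 and 62.8 in old KO. Of the 5 old libraries 4 were above all young ones, and the change was 1.01 ± 0.28, adjusted p = 0.0231 in limma. That call was lost without old library K18F26 or K18F29 (0.79 to 1.27) and in a fit on the compared groups (adjusted p = 0.0618). Fads1, a desaturase of polyunsaturated fatty acids, was 119, 61.4, 83.2, 72.7, 89.0 and 122 in young KO and 48.9, 54.0, 59.5, 46.7 and 58.2 in old KO. The groups did not overlap, and the change was -0.72 ± 0.17, adjusted p = 0.0107, against -0.46 ± 0.17, adjusted p = 0.0817 in WT. Without the libraries with epididymis markers it was -0.43 (adjusted p = 0.0860). The medians with age were 0.11 (sterol) and -0.43 (fatty acid) in WT, against 0.01 over all genes, and 0.33 and -0.04 in KO, against 0.06. With a sex term they were -0.09 and -0.54 in WT and 0.10 and -0.36 in KO, and in libraries with Y transcripts -0.16 and -0.53 in WT and 0.14 and -0.17 in KO. The sign of the WT sterol median turned under both. Without the epididymis-marker libraries the KO medians were 0.62 and 0.33, with only K5F4285 and the Xist libraries K5F5116 and K5F5118 left in young KO.

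Srebf2, Srebf1 and Sqle were not called in adipose tissue. Srebf2 ran from 26.8 to 59.8 with a median of 34.5 in young WT and from 25.7 to 69.9 with a median of 45.1 in young KO, and was 44.5, 62.6, 58.9, 49.8 and 45.8 in old WT and 72.7, 44.1, 45.3, 55.3 and 68.7 in old KO. Srebf1 ran from 38.5 to 153 with a median of 95.7 in young WT and from 50.7 to 144 with a median of 76.8 in young KO, and was 83.7, 101, 110.4, 172 and 123 in old WT and 108, 80.8, 52.1, 108 and 69.2 in old KO. Sqle ran from 2.94 to 19.6 with a median of 5.86 in young WT and from 4.17 to 14.2 with a median of 7.45 in young KO, and was 3.64, 8.39, 12.2, 8.13 and 5.07 in old WT and 16.8, 10.1, 3.49, 9.03 and 14.5 in old KO. For each of these genes all compared groups overlapped, and the changes with age in WT were 0.49 ± 0.24, adjusted p = 0.164 for Srebf2, 0.48 ± 0.36, adjusted p = 0.366 for Srebf1 and 0.13 ± 0.41, adjusted p = 0.853 for Sqle.

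Among related genes, Dgat1 and Gpam of triglyceride assembly were called lower with age in adipose tissue. Dgat1, which completes triglycerides, was lower in WT (-1.54 ± 0.32, adjusted p = 0.00504) and KO (-1.05 ± 0.32, adjusted p = 0.0341), and Gpam, which starts glycerolipid synthesis, in WT (-1.55 ± 0.38, adjusted p = 0.0148). They belong to 24 other fatty acid genes, of which 3 were called in WT and 1 in KO, all lower. For this and the next lists the share of all genes called was 10.8% in WT and 14.2% in KO. Of 8 other sterol genes Lbr was higher in WT (0.43 ± 0.11, adjusted p = 0.0182), and Nus1, of dolichol synthesis, was among those higher in KO (0.61 ± 0.17, adjusted p = 0.0259). Of 11 regulators Mbtps2, a protease that cleaves SREBPs, was higher in WT (0.60 ± 0.16, adjusted p = 0.0233) and KO (0.55 ± 0.16, adjusted p = 0.0301), while Mlx was lower in WT (-0.45 ± 0.14, adjusted p = 0.0393) and Mlxipl in KO (-0.74 ± 0.21, adjusted p = 0.0246). Of 8 feeding and fasting genes tested Cpt1a, which admits fatty acids to mitochondria, was higher in WT (0.95 ± 0.19, adjusted p = 0.00442) and KO (0.70 ± 0.19, adjusted p = 0.0207). Of 13 clock genes tested Per1 was lower in WT (-1.25 ± 0.34, adjusted p = 0.0242) and KO (-1.20 ± 0.34, adjusted p = 0.0259), and Hlf in KO (-1.06 ± 0.32, adjusted p = 0.0343).

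In skeletal muscle 6 of 34 members were called with age in WT, 5 higher and 1 lower, against 18.6% of 13237 genes. Idi1 ran from 5.98 to 10.1 with a median of 7.54 in young WT and was 15.0, 18.6, 12.4, 14.2 and 12.4 in old WT. The groups did not overlap, and the change was 0.82 ± 0.14, adjusted p = 0.00153 in limma, called under each of the 21 alternatives. In KO it was 8.03, 7.08, 6.97 and 7.57 at 5 months and 9.56, 13.4, 9.38, 12.0 and 11.4 at 20 months. These groups did not overlap either (0.52 ± 0.15, adjusted p = 0.0473), and it was the single KO call, against 5.57% of all genes. The KO call was lost without any of old libraries K18S61, K18S63 and K18S64 or any of the 4 young ones (0.46 to 0.58), with a sex term (0.50), in libraries with Y transcripts (adjusted p = 0.172) and with no filter (adjusted p = 0.0809). Msmo1 (0.48 ± 0.15, adjusted p = 0.0620), Hsd17b7 (1.03 ± 0.33, adjusted p = 0.0656) and Sc5d (0.42 ± 0.16, adjusted p = 0.116) also had all old KO libraries above all young ones and were not called. Scd2 and Elovl5 had all old KO libraries below all young ones (-0.42 ± 0.18, adjusted p = 0.148 and -0.33 ± 0.23, adjusted p = 0.362). Altogether 6 of 34 members did not overlap, against 15.8% of all genes.

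The other sterol calls of WT muscle were Stard4, Sc5d and Hmgcs1. Stard4 ran from 2.14 to 4.29 with a median of 3.17 in young WT and was 6.63, 5.27, 3.89, 6.40 and 4.72 in old WT, with overlap through old library W18S45 (0.65 ± 0.16, adjusted p = 0.0122). Sc5d, a late desaturase gene, ran from 20.6 to 40.0 with a median of 23.3 and was 33.2, 49.3, 35.7, 40.0 and 34.9, with overlap through young library W5S5277 (0.55 ± 0.15, adjusted p = 0.0159). Its call was lost without old library W18S42 (0.46), in libraries with Y transcripts (0.41) and in a fit on the compared groups (adjusted p = 0.0619). Hmgcs1 ran from 26.0 to 45.6 with a median of 29.6 and was 41.9, 43.6, 37.9, 43.6 and 39.6, and young library W5S5277 was above all old ones (0.37 ± 0.13, adjusted p = 0.0461). This call was lost without any of the 5 old libraries or of young libraries W5S5004, W5S5007, W5S5041 and W5S5042 (0.32 to 0.47), and with a sex term (0.33). It was also lost with no filter, with TMM, in edgeR and DESeq2, in libraries with Y transcripts, in a fit on the compared groups and without the libraries with hepatocyte or epididymis markers (0.25 to 0.39). The sterol median was 0.04 in WT and 0.08 in KO, against 0.03 and -0.02 over all genes.

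In the fatty acid branch of WT muscle Me1 rose and Scd2 fell with age. Me1 ran from 240.4 to 323 with a median of 276 in young WT and was 319, 424, 371, 346 and 359 in old WT, with overlap through old library W18S41 (0.38 ± 0.09, adjusted p = 0.0109). Its call was lost in libraries with Y transcripts (0.32). Scd2, a desaturase gene related to Scd1, ran from 15.1 to 32.5 with a median of 19.9 and was 16.1, 9.94, 15.0, 13.2 and 15.0, also with overlap through old library W18S41 (-0.58 ± 0.16, adjusted p = 0.0190). The Scd2 call was lost without old library W18S42 (-0.48), in which the 5 hepatocyte markers summed to 2642. In that library Fads2 was 7.64 and Elovl5 44.7, against at most 2.03 and 20.6 in the other old WT muscles. Without it and young WT library W5S5299, which held epididymis markers (127), the Scd2 change was -0.36 and not called, and a fit on the compared groups did not call it either (adjusted p = 0.0653). The fatty acid median was -0.17 in WT and -0.28 in KO.

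Between KO and WT 0 of 34 members were called in young muscle (all genes 0%) and 0 in old muscle (all genes 0.0302%). Me1 and Scd2 did not overlap between the old genotypes, 2 of 34 members against 3% of all genes. Me1 was 293, 300.3, 275, 305 and 313 in old KO, below every old WT library (-0.28 ± 0.10, adjusted p = 0.295). Scd2 was 21.7, 21.1, 20.6, 19.9 and 18.9 in old KO, above every old WT library (0.55 ± 0.17, adjusted p = 0.295). The difference of the KO effect between the ages was called for 0 members in limma, against 0% of all genes for adipose tissue, 0% for liver and 0% for muscle. At an unadjusted p under 0.05 this difference passed for 2 adipose members, 2 liver members and 1 muscle member, against 2.85%, 3.92% and 3.31% of all genes.

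Of 11 regulators 4 were called with age in WT muscle, 2 higher and 2 lower, and 1 in KO. For this and the next lists the share of all genes called was 18.6% in WT and 5.57% in KO. Abcg1, a sterol exporter, was lower in WT (-1.21 ± 0.22, adjusted p = 0.00266) and KO (-1.02 ± 0.24, adjusted p = 0.0221), and Mylip, a ubiquitin ligase gene, was lower in WT (-0.83 ± 0.23, adjusted p = 0.0188), while Mbtps2 and Insig2 were higher in WT (0.42 and 0.39). Of 20 other fatty acid genes tested Gpam was higher (1.25 ± 0.39, adjusted p = 0.0335) and Pgd, an NADPH source, lower (-0.44 ± 0.14, adjusted p = 0.0329) in WT, and Elovl1 was lower in KO (-0.57 ± 0.17, adjusted p = 0.0496). Of 8 other sterol genes 0 were called in WT and Cyb5r3 was lower in KO (-0.41 ± 0.10, adjusted p = 0.0216). Of 7 feeding and fasting genes tested Irs2, of insulin signalling, was lower in WT (-1.16 ± 0.34, adjusted p = 0.0248). Of 14 clock genes 4 were called in WT, with Per1 (-1.34 ± 0.29, adjusted p = 0.00722) and Cry2 (-1.03 ± 0.30, adjusted p = 0.0233) lower and Nr1d2 and Clock higher (0.70 and 0.55). Across the 3 tissues 0 genes of these companion lists were called between KO and WT.

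**Figure D5:**
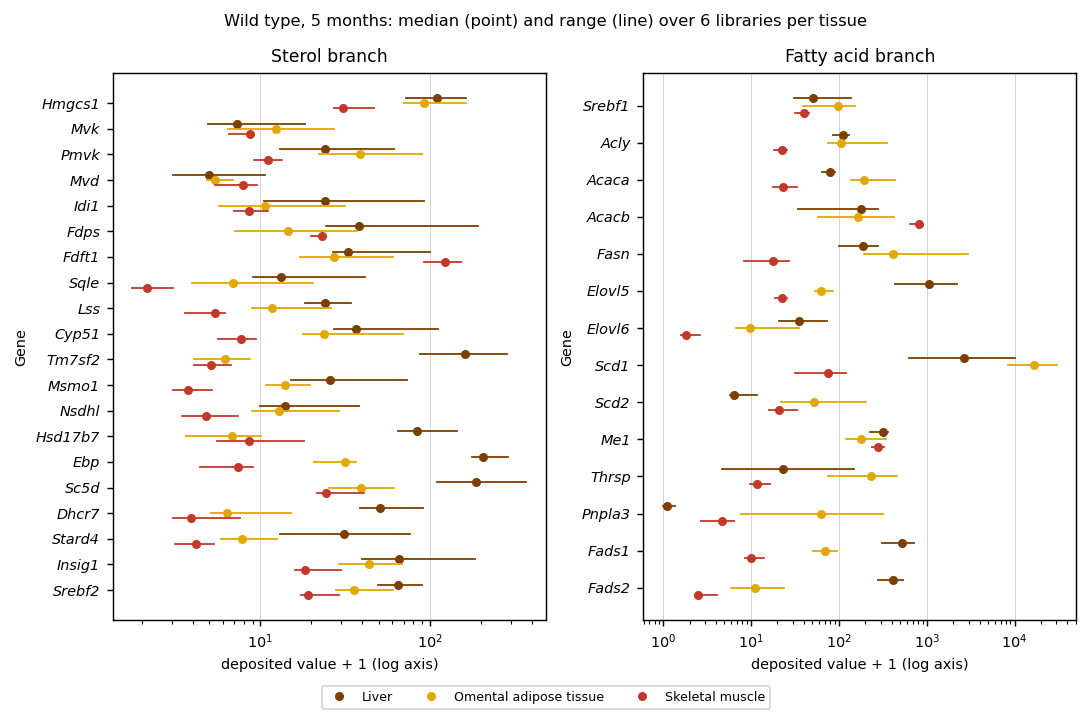
Median and range of value + 1 (log axes) over the 6 young WT libraries of each tissue for each sterol and fatty acid gene. Tm7sf2, Ebp and Fads2 are highest in liver, and Pnpla3 and Scd1 are highest in adipose tissue.

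The young WT tissues differed in many of these genes, as they did in most genes tested. Between liver and adipose tissue 23 of 34 members were called, 17 higher and 6 lower in liver, against 69.7% of 14087 genes. With scaling by total reads the median of all genes moved from -0.03 to -1.02, and 24 members were called, 9 higher and 15 lower. Called higher under both scalings were 9 members (Dhcr7, Ebp, Elovl5, Fads1, Fads2, Hsd17b7, Sc5d, Stard4 and Tm7sf2), and called lower under both were 6. Tm7sf2, a sterol reductase gene, ran from 86.7 to 284 in liver and from 3.06 to 7.74 in adipose tissue (4.75 ± 0.26, adjusted p = 4.2e-12). Hsd17b7 ran from 64 to 143 in liver and from 2.62 to 9.11 in adipose tissue (3.78 ± 0.31, adjusted p = 1.7e-09). These late sterol genes did not overlap between the tissues, among 12 of 34 members that did not, against 48.2% of all genes. Fads2 ran from 281 to 537 and from 4.95 to 22.9 (5.22 ± 0.27, adjusted p = 1.0e-12), and Elovl5 from 433 to 2227 and from 52.2 to 85.4 (4.04 ± 0.26, adjusted p = 3.7e-11). With scaling by total reads these 4 differences were 3.69, 2.72, 4.12 and 2.90.

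The 6 members called lower in liver under both scalings belonged to the fatty acid branch, while scaling by total reads also called sterol members lower (Hmgcs1, Mvd, Mvk, Nsdhl and Pmvk). Pnpla3 ran from 0 to 0.361 in liver and from 6.68 to 314 in adipose tissue, without overlap (-5.37 ± 0.75, adjusted p = 2.8e-06). Thrsp ran from 3.74 to 147 in liver and from 73.5 to 462 in adipose tissue, with overlap (-2.99 ± 0.61, adjusted p = 2.2e-04). Scd2, Scd1, Fasn and Acaca were the other 4, with -2.79, -2.65, -1.82 and -1.56. For Hmgcs1 the difference was 0.14 ± 0.22, adjusted p = 0.584, and with scaling by total reads it was -0.99 and called lower (adjusted p = 8.4e-04). For Srebf2 the difference was 0.83 ± 0.20, adjusted p = 8.3e-04, and its direction turned with scaling by total reads (-0.29).

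Between liver and muscle 30 of 34 members were called, 25 higher and 5 lower in liver, against 73.1% of 14087 genes. With scaling by total reads the median of all genes moved from -0.01 to -0.21, and 29 were called, 24 higher and 5 lower. Fads2 ran from 1.31 to 3.13 in muscle (7.19 ± 0.27, adjusted p = 2.8e-15), Elovl5 from 17.7 to 24.9 (5.61 ± 0.26, adjusted p = 1.0e-13) and Fads1 from 7.47 to 13.2 (5.6 ± 0.19, adjusted p = 7.5e-16). Scd1 ran from 636 to 10223 in liver and from 30.5 to 121 in muscle (5.16 ± 0.58, adjusted p = 1.2e-07). Tm7sf2 ran from 3.06 to 5.67 in muscle (4.99 ± 0.26, adjusted p = 1.0e-12) and Ebp, a sterol isomerase gene, from 176 to 286 in liver and from 3.38 to 8.10 in muscle (4.94 ± 0.18, adjusted p = 2.9e-15). None of these 6 overlapped between the tissues, and altogether 26 of 34 members did not, against 56.2% of all genes. Lower in liver were Acacb, Pnpla3, Scd2, Fdft1 and Mvd, with -2.49, -1.94, -1.56, -1.45 and -0.59.

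Levels per kilobase of exon gave the order of the genes within each young WT tissue (mean ± SD, n = 6). The SD is between libraries. All genes of a tissue were measured in the same libraries, so it does not test their order. In liver Ebp was the highest sterol gene at 96.8 ± 20.7, followed by Sc5d (42.8 ± 20.3) and Tm7sf2 (40.7 ± 19.2), which did not differ beyond their spread. In adipose tissue Pmvk (26.8 ± 14.2) and Hmgcs1 (22.2 ± 7.11) led, again within their spread. In muscle Fdft1, the squalene synthase gene, led at 28.3 ± 5.73, above Hmgcs1 at 7.03 ± 1.61. In liver Scd1 (811 ± 785) and Elovl5 (337 ± 169) had the highest means of the fatty acid branch, within the spread of Scd1, and in adipose tissue Scd1 led (3409.6 ± 1540.0). In muscle Acacb (80.7 ± 9.14) and Me1 (72.5 ± 8.58) led, within their spread of each other, and Scd1 was at 15.4 ± 7.42. How any reads shared by related genes such as Scd1 and Scd2 or Acaca and Acacb were counted is not given in the sources used here.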

How the data were processed

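RNA-seq of omental adipose tissue, liver and skeletal muscle was deposited as a table of 64 columns. Per the labels' protocols, poly-T selected RNA went into a directional kit. The deposited values are a scaled signal: read counts per gene that the authors divided by a factor for each library. Whole reads were recovered for 100% of values (tolerance 0.01). GRCm38.p6 and mm10 are named per the submitters' processing notes. Aligner, annotation and strand use are not given in the sources used here. IDs without a symbol (996) held 0.155% of reads.

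Groups came from the labels. In each tissue log2(value + 1) of tested genes was fitted over the 4 groups with limma 3.58.1 (R 4.3.3), with Benjamini-Hochberg adjustment over all genes tested. The young WT tissues were fitted together, without a block. Same-numbered liver and muscle libraries deviated together (r from 0.155 to 0.283 over 5 numbers), so a fit with the number as a block was run as an alternative for the tissues. Alternatives were edgeR 4.0.16 and DESeq2 1.42.0 on recovered reads, other scalings, another pseudocount (0.1), no filter, sex terms, libraries left out and a block for the number. The limma and edgeR fits were run on counts simulated for liver, with changes between the WT ages and a single fixed dispersion. DESeq2 and the fits of other tissues were not simulated. Replicate libraries differed by more than sampling noise.

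The members and lists were chosen with earlier results of these data known. Named in full were Srebf1, Srebf2, Hmgcs1, Sqle, Fasn and Scd1 in liver and adipose tissue, each called member (or the 6 with the largest change), and the 2 called genes with the largest change of each companion list. Other genes named were chosen after their values were seen. A companion gene that this rule names is not reported here. Levels per kilobase used exon unions of GENCODE M21 (GRCm38).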

Additional observations from a re-analysis of the deposited data

Results flagged for a closer look

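Of 136 sets of 4 to 6 libraries checked (branch means and members within groups), 6 held a library far from the others, and chance flags about 1 in 20. In young KO liver, library K5L5218 stood above the other 5 for the sterol branch mean (6.31 on the log2 scale), Idi1 (101), Sqle (48.4) and Msmo1 (107). These 4 values come from 1 library and are not independent. In old WT adipose tissue, library W18F24 was high for Hmgcs1 (349). In young WT muscle, library W5S5041 had the lowest sterol branch mean (3.12).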

How the results depend on the processing

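No fold change of a gene named for age or genotype and recomputed under the alternatives changed direction: of 496 values for 24 such results, 409 stayed on the same side of the threshold, 81 lost the call and 6 gained one. The numbers of members called with age depended more on the settings. Shares of all genes called under each setting are not given here, so the counts below describe the settings and do not single out the members. In young KO against WT adipose tissue (0 called), DESeq2 called 3 and libraries with Y transcripts 4. In ageing WT adipose tissue (3), 1 were called without a filter, 5 by DESeq2, 0 with a sex term, 0 in libraries with Y transcripts and 6 without the libraries with epididymis markers. In ageing KO adipose tissue (3), DESeq2 called 5, libraries with Y transcripts 5, a fit on the compared groups 1 and omission of the epididymis-marker libraries 6. In ageing WT liver (1), scaling by total reads gave 2 and DESeq2 3. In ageing KO liver (1), 0 were called without a filter, 0 with scaling by total reads, 0 by edgeR and 2 in libraries with Y transcripts. In ageing WT muscle (6), a fit on the compared groups called 3. In ageing KO muscle (1), 0 were called without a filter, 3 with scaling by total reads, 2 with TMM, 3 by DESeq2, 0 with a sex term, 0 in libraries with Y transcripts and 7 in a fit on the compared groups. Leaving out 1 library gave 0 to 4 calls in ageing WT and 1 to 7 in ageing KO adipose tissue, 1 to 5 and 0 to 1 in liver, and 3 to 9 and 0 to 1 in muscle, and 22 to 24 and 29 to 30 for liver against adipose tissue and muscle. The lowest count in ageing WT adipose tissue came without young adipose library W5F5042. The highest in ageing WT muscle came without young muscle library W5S5277. In the comparisons of KO with WT and of the age effects, leaving out any 1 library gave 0 calls. The causes were not tested. Omitting the libraries with epididymis or hepatocyte markers was chosen after seeing the data. With the number in the codes as a replicate block, 26 members were called between liver and adipose tissue, including the 23 without it, and the same 30 between liver and muscle. Deviations of same-numbered liver and adipose libraries had r from -0.09 to 0.38, and 3 of 5 liver libraries correlated best with their own number. The same numbers held Xist transcripts in each tissue. Depth limits low members most: Pnpla3 in liver was near 0.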
